A study of Homo sapiens with 48 samples.

Results

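The anaphase-promoting complex, or cyclosome (APC/C), was followed through 10 of its subunits in human fibroblasts that had lost a splicing factor: CDC16, CDC23, CDC27, ANAPC1, ANAPC2, ANAPC4, ANAPC5, ANAPC7, ANAPC10 and ANAPC11. The subunits were chosen by name from the 19842 gene names of the count table, and CDC27 was included because an exon of it is skipped after knockdown of SF3B1, so its values after that knockdown are given as a description with no test. All 10 passed the minimum of 10000 counts in total that left 9991 genes for testing. Their transcripts carry 321 annotated splicing events among 345875, of which 70 were covered in every library. Of these, 23 also varied enough and, for introns, passed a balance test of reads at both ends, and were tested.

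The cells were IMR90, a line of normal human lung fibroblasts, carrying ER:RAS G12V, a fusion of oncogenic RAS with the hormone-binding part of the oestrogen receptor that is switched on by 4-hydroxytamoxifen (4OHT). All 6 groups shared this line and the same culture: 6 days with 4OHT or its solvent DMSO in complete medium, then transfection and 2 days in 0.5% serum. Within each treatment, cells received non-targeting siRNA (siNT1 or siNT2), siRNA against SF3B1 (siSF3B1-13 or siSF3B1-16) or siRNA against RBM39 (siRBM39-06 or siRBM39-08), with 4 libraries per siRNA and 8 per group. The study's methods describe replicates of cultured cells as independent experiments; the labels do not say whether the 4 are separate cultures, and p-values measure the spread between these libraries.

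The 48 libraries held 31467221 to 52734636 gene counts (median 39656598). SF3B1 stood at 311 to 396 CPM (counts scaled to a common library size) with siNT and 30.4 to 35.2 with siSF3B1 in DMSO, and at 315 to 340 against 25.3 to 30.7 in 4OHT. RBM39 stood at 158 to 185 CPM with siNT and 24.2 to 30.96 with siRBM39 in DMSO, and at 115 to 127 against 13.7 to 18.4 in 4OHT, so in every library the level of the targeted gene matched the target of its siRNA. All 7 fibroblast markers were present, with a summed level of 51764 to 58911 CPM in DMSO siNT and 14328 to 15135 CPM in 4OHT siNT; the epithelial, leukocyte and endothelial lists each summed to at most 113.5 CPM in any library. A set of 3 siRBM39 libraries stood apart: across genes, their median distance from their group's median was 0.501 on the log2 scale (siRBM39-08 replicate 4 in 4OHT), 0.266 and 0.175 (siRBM39-06 replicates 1 and 3 in DMSO), against 0.0302 to 0.113 in the other 45. Calls of members that rest on them are given with and without them, while correlations with CDC27 include them throughout.

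The APC/C is a ubiquitin ligase that marks proteins such as cyclins and securin for destruction, and so lets a cell separate its chromosomes, leave mitosis and hold G1. Its cullin-like subunit ANAPC2 and RING subunit ANAPC11 carry out catalysis, ANAPC10 helps a coactivator to bind substrates, and ANAPC1, ANAPC4 and ANAPC5 form a platform. CDC16, CDC23, CDC27 and ANAPC7 are tetratricopeptide repeat proteins that build an arch above it, on which the coactivators CDC20 and FZR1 dock. SF3B1 is the part of the U2 snRNP that holds the branch point of an intron, and RBM39 is an RNA-binding protein that works beside U2AF at 3′ splice sites.

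Some of the exons and an intron taken up in the results are given as they read in GRCh37 from 5′ to 3′ on the gene's strand. They were located by matching lengths of exons and introns to GENCODE, since the event table gives GRCh38 positions. The CDC27 exons are the one that put the gene on the list and another that dipped with it. The rest are examples of changes in the other members. They are not the largest changes: longer introns of ANAPC2 and ANAPC4 that changed more than ANAPC5 exon 3 are not printed. Capitals mark the exon that was skipped, with 30 bases of intron before it and 10 after it, or the intron that was kept, with 10 bases of exon on each side.
CDC27 exon 17 of 19, 75 nt, chr17:45201242-45201356, minus strand: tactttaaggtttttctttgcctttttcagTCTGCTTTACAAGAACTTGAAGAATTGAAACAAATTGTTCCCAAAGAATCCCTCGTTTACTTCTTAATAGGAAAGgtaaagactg
CDC27 exon 10 of 19, 100 nt, chr17:45221239-45221378, minus strand: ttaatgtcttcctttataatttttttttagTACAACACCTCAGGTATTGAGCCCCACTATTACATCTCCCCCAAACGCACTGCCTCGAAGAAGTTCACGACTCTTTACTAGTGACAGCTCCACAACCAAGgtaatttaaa
CDC16 exon 15 of 18, 62 nt, chr13:115027332-115027433, plus strand: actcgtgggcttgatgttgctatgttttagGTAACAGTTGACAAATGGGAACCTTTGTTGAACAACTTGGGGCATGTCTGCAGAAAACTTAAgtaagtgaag
CDC16 exon 17 of 18, 91 nt, chr13:115030595-115030725, plus strand: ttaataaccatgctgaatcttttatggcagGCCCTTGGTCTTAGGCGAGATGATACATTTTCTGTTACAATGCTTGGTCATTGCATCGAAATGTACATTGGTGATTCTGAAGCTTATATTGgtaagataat
ANAPC5 exon 3 of 17, 110 nt, chr12:121784689-121784838, minus strand: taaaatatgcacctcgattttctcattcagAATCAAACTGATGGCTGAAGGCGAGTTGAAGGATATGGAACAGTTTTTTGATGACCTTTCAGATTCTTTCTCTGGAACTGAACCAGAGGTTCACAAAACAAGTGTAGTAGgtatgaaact
ANAPC2 intron 9 of 12, 67 nt, chr9:140074827-140074913, minus strand: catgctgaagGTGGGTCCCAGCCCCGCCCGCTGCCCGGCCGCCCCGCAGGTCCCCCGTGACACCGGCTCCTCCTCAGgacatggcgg

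The members were not present at one level. Per mappable length (cRPKM, deposited by the authors), which allows genes to be compared, ANAPC5 had a median of 44 over the 16 siNT libraries (38.8 to 51.2) and CDC16 one of 40.1 (38.2 to 41.8). CDC27 followed at 30.7 (23.8 to 35.2), ANAPC11 at 20.7 (15.8 to 22.7), ANAPC2 at 16.9 (12.1 to 20.2) and ANAPC7 at 14.97 (12.5 to 16.8). The lowest were CDC23 at 9.99 (7.55 to 12.3), ANAPC1 at 8.05 (7.32 to 8.86), ANAPC4 at 7.08 (6.24 to 7.86) and ANAPC10 at 5.40 (4.53 to 6.99). Neighbours in this order overlapped in range except at 3 steps, from CDC16 down to CDC27, from CDC27 down to ANAPC11 and from ANAPC7 down to CDC23. By CPM, which grows with transcript length, only 4 members kept their place, and ANAPC11, with the shortest transcript (638 nt), fell from place 4 to place 8.

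After SF3B1 knockdown, the repeat proteins CDC16, CDC23 and ANAPC7 and the platform subunits ANAPC4 and ANAPC5 were lower in both treatments and ANAPC1 in 4OHT, while neither catalytic subunit was called lower. In DMSO, 5 of the 9 members tested fell (CDC16, CDC23, ANAPC4, ANAPC5 and ANAPC7) and 1 rose (ANAPC2). In 4OHT, 6 fell, the same 5 and ANAPC1, and none rose. These counts stand against a background in which 72.7% of all genes tested were called in DMSO (36.5% higher and 36.2% lower) and 77.0% in 4OHT (39.4% higher and 37.6% lower). A call meant a p under 0.05 after Benjamini-Hochberg adjustment in edgeR's quasi-likelihood test. The median log2 fold change of the 9 members was -0.35 in DMSO and -0.53 in 4OHT, against 0.02 and 0.03 over all genes. In bulk RNA, fewer cells of a type and less RNA per cell cannot be told apart.

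CDC16 showed the largest drop. In DMSO its level was 81.4 to 88.8 CPM with siNT (median 85.5) and 21.1 to 29.5 CPM with siSF3B1 (median 24.95). In 4OHT it was 83.8 to 89.8 CPM with siNT (median 86.2) and 13.3 to 18.7 CPM with siSF3B1 (median 16.3). No siSF3B1 library came near a siNT library in either treatment. The log2 fold change was -1.77 (SE 0.06, adjusted p = 9.63e-28) in DMSO and -2.42 (SE 0.07, adjusted p = 1.24e-32) in 4OHT. Within the knockdown groups the siRNAs did not overlap: siSF3B1-13 gave 13.3 to 15.6 CPM in 4OHT and siSF3B1-16 gave 17.1 to 18.7 CPM.

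CDC23, the repeat protein that receives a conserved motif of the coactivators, also fell. It stood at 34.9 to 37.6 CPM with siNT (median 35.2) and 23.03 to 25.6 CPM with siSF3B1 (median 24.5) in DMSO. In 4OHT it stood at 23.2 to 26.5 CPM (median 24.1) and 12.9 to 14.8 CPM (median 14.2), and the groups overlapped in neither treatment. The log2 fold changes were -0.55 (SE 0.07, adjusted p = 1.29e-09) and -0.81 (SE 0.07, adjusted p = 2.21e-14). CDC23 shares exon sequence with KIF20A on the opposite strand, and whether counting used strand is not given in the sources used here. KIF20A, a mitotic kinesin, was lower as well, its log2 fold change with siSF3B1 being -2.94 (DMSO) and -1.11 (4OHT); its part in the CDC23 values was not tested.

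ANAPC7, the repeat protein at the end of the arch, stood at 36.8 to 42.1 CPM with siNT (median 40.5) and 29.96 to 34.2 CPM with siSF3B1 (median 30.7) in DMSO. In 4OHT it stood at 46.9 to 49.9 CPM (median 49.1) and 29.7 to 33.4 CPM (median 30.9). The groups did not overlap, and the log2 fold changes were -0.36 (SE 0.04, adjusted p = 5.47e-10) and -0.65 (SE 0.04, adjusted p = 2.47e-18).

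In the platform, ANAPC4 fell by a like amount in both treatments, from 17.98 to 20.4 CPM down to 11.6 to 15.1 CPM in DMSO and from 16.4 to 19.3 CPM down to 11.1 to 14.96 CPM in 4OHT. Its log2 fold changes were -0.51 (SE 0.07, adjusted p = 1.74e-08) and -0.53 (SE 0.07, adjusted p = 8.54e-09). ANAPC5 stood at 95.4 to 102.8 CPM with siNT and 72.1 to 80.4 CPM with siSF3B1 in DMSO, and at 112.3 to 124.8 against 86.4 to 97.0 CPM in 4OHT. Its log2 fold changes were -0.35 (SE 0.03, adjusted p = 1.16e-12) and -0.40 (SE 0.03, adjusted p = 2.06e-14). ANAPC1, the largest subunit, overlapped between the groups in DMSO (59.4 to 66.1 against 53.7 to 61.3 CPM, log2 fold change -0.13, SE 0.06, adjusted p = 0.0556). In 4OHT it stood apart, at 64.3 to 72.4 against 40.5 to 48.7 CPM (log2 fold change -0.59, SE 0.06, adjusted p = 5.55e-12).

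The catalytic subunits and ANAPC10 were not called lower, and their groups overlapped in both treatments. ANAPC2 stood at 31.3 to 39.5 CPM with siNT and 38.5 to 45.5 CPM with siSF3B1 in DMSO (log2 fold change 0.26, SE 0.12, adjusted p = 0.0407, not called with siNT1 alone, siSF3B1-16 alone or without replicate 1, 2 or 3), and at 46.9 to 51.8 against 48.3 to 54.5 CPM in 4OHT (0.07, SE 0.12, adjusted p = 0.567). ANAPC11 stood at 21.7 to 24.1 against 22.7 to 30.8 CPM in DMSO (0.22, SE 0.15, adjusted p = 0.200) and at 17.01 to 22.8 against 22.2 to 28.1 CPM in 4OHT (0.31, SE 0.15, adjusted p = 0.0654). All groups share 1 estimate of the spread, in which the 3 siRBM39 libraries that stood apart take part. Without them, ANAPC11 was called higher after siSF3B1 in both treatments (0.22, adjusted p = 0.00303; 0.31, adjusted p = 5.31e-05) and ANAPC1 was called lower in DMSO too (-0.13, adjusted p = 0.00482). The log2 fold changes of ANAPC10 were 0.16 (SE 0.08, adjusted p = 0.0661) and 0.05 (SE 0.08, adjusted p = 0.568).

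CDC27, described with no test, had 73.2 to 92.3 CPM with siNT (median 77.7) and 54.1 to 67.8 CPM with siSF3B1 (median 62.1) in DMSO. In 4OHT it had 98.5 to 109.9 CPM with siNT (median 104.9) and 49.5 to 60.1 CPM with siSF3B1 (median 55.2). The groups did not overlap, and the log2 differences were -0.38 (SE 0.09) and -0.92 (SE 0.09). CDC27 has 2 annotated pseudogenes and ANAPC1 has 7, so reads of these members may have been shared with copies.

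**Figure D1:**
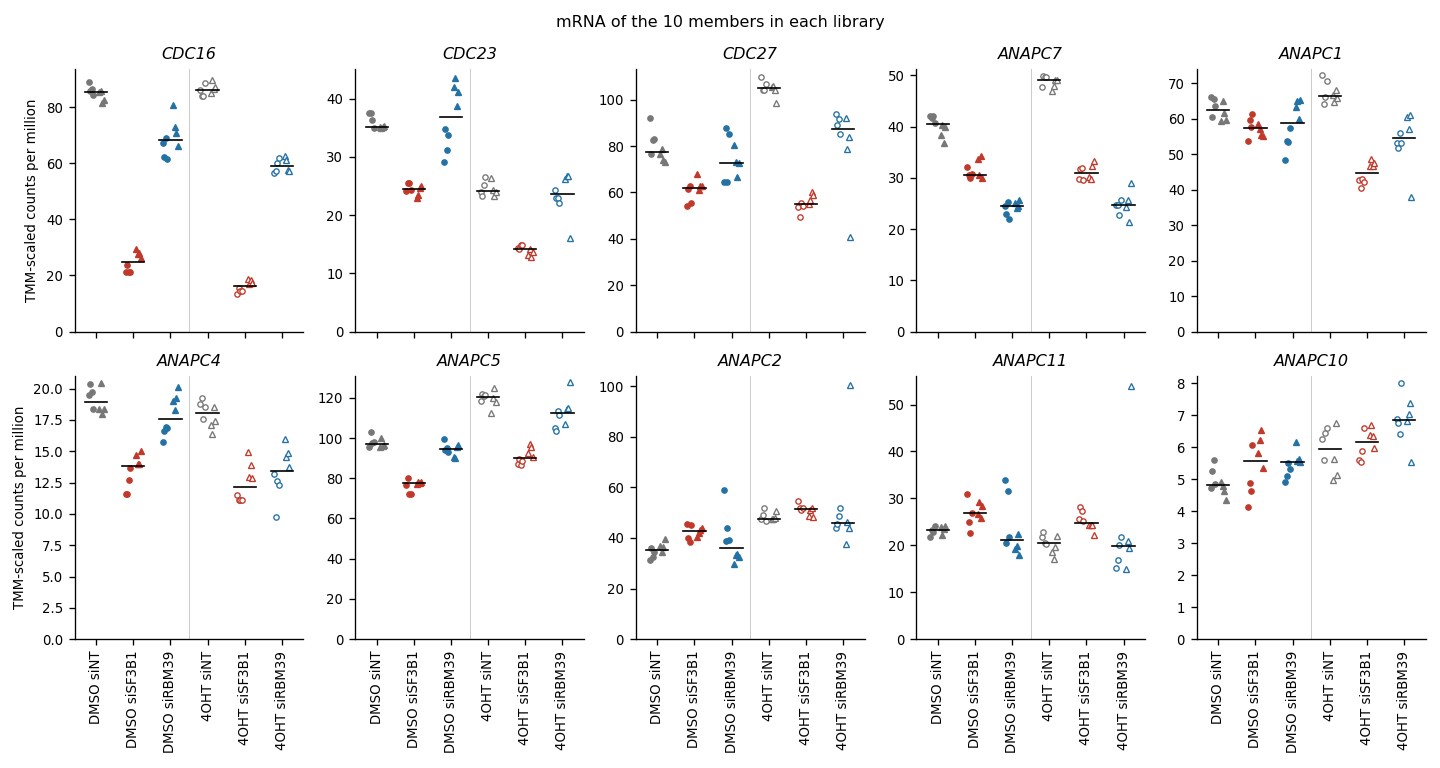
Level of each member (y axis, TMM-scaled CPM from 0) in each of 48 libraries by group (x axis), with circles and triangles for the siRNAs of a target, filled symbols for DMSO, open symbols for 4OHT and black bars for group medians. CDC16 drops to 13.3 to 18.7 CPM in 4OHT siSF3B1, and siRBM39-08 replicate 4 in 4OHT lies far from the other libraries of its group in several members.

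**Figure D2:**
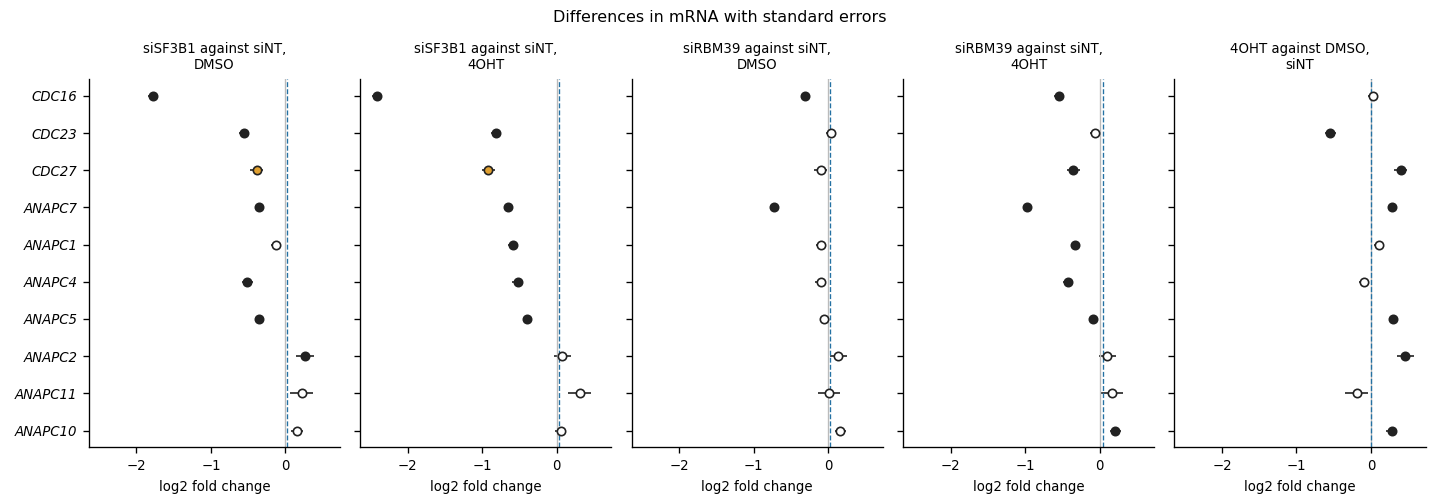
Log2 fold change (x axis) with standard error of each member in the 5 comparisons. Filled points passed an adjusted p under 0.05, open points did not, orange points (CDC27 after siSF3B1) were not tested, and the dashed line is the median of all genes; CDC16 lies at -1.77 and -2.42 after siSF3B1.

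Splicing was read as PSI, the percent of transcripts that include an exon, or as percent intron retention for introns. The CDC27 exon that put the gene on the list is 75 nt long, so that its loss would remove 25 of 824 codons in frame. It was included at 98.6 to 100% in DMSO siNT and 83.9 to 95.2% in DMSO siSF3B1 (means 99.8% and 89.2%), from 57 to 106 reads per siSF3B1 library. In 4OHT it was included at 98.6 to 100% with siNT and 80.5 to 100% with siSF3B1 (means 99.8% and 89.5%). The groups did not overlap in DMSO, while in 4OHT 2 siSF3B1 libraries, 1 of each siRNA, still read 100%. No GENCODE transcript of the gene joins its neighbours directly. Elsewhere in CDC27, the 100-nt exon 10 read 92.6 to 100% in 4OHT siSF3B1 (mean 97.4%) and 98.0% or more in the other 5 groups, and a 164-nt cassette exon between 0 and 1.19% in every library.

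The siRBM39 libraries did not enter the choice of CDC27, while the siNT libraries they were set against did. The 75-nt exon passed the minimum PSI range only through siSF3B1, as all other groups read 98.1% or more. The same exon stayed at or near full inclusion after RBM39 knockdown. It read 98.1 to 100% in DMSO and 100% in all 8 libraries in 4OHT (differences of -0.49 and 0.17 percentage points, adjusted p = 0.815 and 1 by limma on logit PSI).

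CDC16 showed both exon skipping and intron retention after SF3B1 knockdown. Its 62-nt exon 15 was included at 97.7 to 100% in DMSO siNT (mean 98.8%) and 72.6 to 87.5% in DMSO siSF3B1 (mean 79.9%). In 4OHT it was included at 99.3 to 100% with siNT (mean 99.6%) and 34.8 to 80.4% with siSF3B1 (mean 69.8%), where the lowest library had 31 reads and the other 7 lay between 68.0 and 80.4%. The groups did not overlap in either treatment, with differences of -18.9 points (adjusted p = 2.45e-12) and -29.8 points (adjusted p = 6.50e-17). Its loss shifts the frame and would place a stop after 441 of 620 codons, with 2 exon junctions after the stop and 215 nt before the last of them. The 2488-nt intron just before this exon was retained at 1.08 to 7.76% in DMSO siNT and 4.44 to 13.8% in DMSO siSF3B1 (5.64 points, adjusted p = 2.76e-04), and at 0.93 to 4.17% against 2.70 to 22.2% in 4OHT (10.2 points, adjusted p = 5.67e-07). Its call in DMSO was lost with siNT1 alone, with siSF3B1-16 alone, without replicate 1 and at 10 points.

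Of all cassette exons tested, 26.8% were called in DMSO and 30% in 4OHT, meaning an adjusted p under 0.05 and a difference of at least 5 points. Leaving out the CDC27 exons, 1 of 8 tested exons of the members was called in DMSO and 2 of 8 in 4OHT. Of 11 tested introns, 5 were called in each treatment, against 11.1% and 14.9% of all introns. Of 2 alternative splice sites, 1 was called in DMSO and 0 in 4OHT, against 10.3% and 10.6%.

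The called introns that rose lay in ANAPC2, ANAPC4 and CDC16. The 67-nt intron 9 of ANAPC2, with 80.6% G and C, was retained at 1.27 to 4.27% in DMSO siNT and 20.4 to 43.4% in DMSO siSF3B1. In 4OHT it was retained at 1.82 to 9.62% with siNT and 30.5 to 63.0% with siSF3B1. No siSF3B1 library overlapped the controls, and the differences were 30.6 points (adjusted p = 5.50e-15) and 34.8 points (adjusted p = 4.41e-14). Retention would put a stop after 600 of 822 codons. The 260-nt intron 8 before it rose from a mean of 3.00% to 16.2% in DMSO (adjusted p = 3.20e-06) and from 3.06% to 11.1% in 4OHT (adjusted p = 0.00119), with 10 to 46.2 reads per library. The 1136-nt intron 3 of ANAPC2 rose from 1.504% to 13.3% in 4OHT (adjusted p = 4.05e-07). In DMSO it went from 2.41% to 6.83% (4.42 points, adjusted p = 0.00331, under the minimum of 5). The gene count of ANAPC2, given above, did not fall in either treatment. In ANAPC4, the 2444-nt intron 20 stood at 0 to 1.64% in DMSO siNT and 0 to 16.3% in DMSO siSF3B1 (5.81 points, adjusted p = 1.79e-05), and at 0 to 1.30% against 5.88 to 15.4% in 4OHT (8.61 points, adjusted p = 1.04e-09). Its call in DMSO was lost with siSF3B1-16 alone and at 10 points, and that in 4OHT at 10 points.

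In ANAPC5, intron 10 was called lower in DMSO alone, and intron 3 was lower in both treatments. Intron 10 was retained at 1.33 to 14.7% in DMSO siNT and 0 to 5.56% in DMSO siSF3B1 (-5.70 points, adjusted p = 3.83e-05), with an overlap between the groups, and at 0 to 3.90% against 0 to 2.86% in 4OHT (-0.69 points, adjusted p = 0.440). DMSO siNT was the group apart, with a mean of 6.88%, while every other group had a mean of 1.93% or less. The call in DMSO was lost without replicate 2 and at 10 points. An alternative 3′ splice site of ANAPC5 was used at a mean of 92.6% with siNT and 98.1% with siSF3B1 in DMSO (adjusted p = 0.0325), a call that was lost by the exact permutation test, with no minimum PSI range, at 10 points, with siNT1 or either SF3B1 siRNA alone and without replicate 2, 3 or 4; in 4OHT it differed by 1.15 points (adjusted p = 0.369). Intron 3 of ANAPC5, chosen after its values were seen, failed the balance test of reads at its ends and was tested with 5 other such introns of the members. It fell from a mean of 22.6% to 3.32% in DMSO and from 14.7% to 2.21% in 4OHT (exact permutation p = 9.32e-04 and 1.55e-04, the latter the smallest possible; adjusted over 30 tests of 6 such introns, p = 0.00466 and 0.00311). The 110-nt exon 3 just before intron 3 was included at 95.6 to 100% in DMSO siNT and 80.1 to 100% in DMSO siSF3B1 (-4.69 points, under the minimum of 5). In 4OHT it was at 100% in all 8 siNT libraries and at 81.2 to 96.8% with siSF3B1 (-8.69 points, adjusted p = 1.72e-07). Its loss would leave 107 of 755 codons before a stop.

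**Figure D3:**
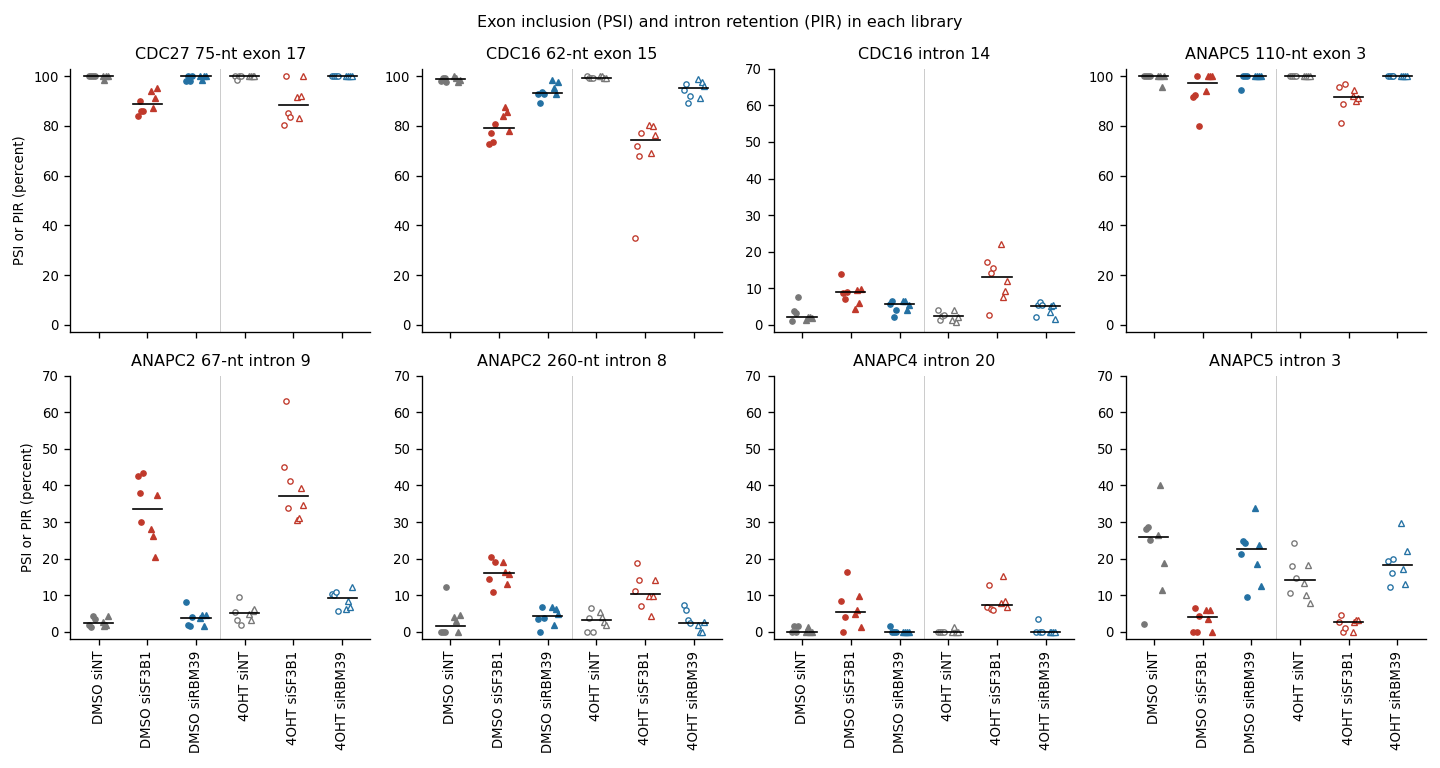
Inclusion of exons and retention of introns (y axis, percent) in each library by group (x axis), with symbols as in the plot of levels; exon panels run from 0 to 100% and intron panels to 70%. ANAPC2 intron 9 reaches 20.4 to 63.0% with siSF3B1, while CDC27 exon 17 stays at 98.1% or more with siRBM39.

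Many exons and introns of the members had too few reads in single libraries, so reads were summed over the 8 libraries of each group as a description with no test. This choice was made after the values were seen. The balance of reads at both ends was not checked for the summed introns. Among untested events with at least 100 summed reads in each group, 14 differed by 10 points or more after a knockdown, apart from intron 3 of ANAPC5. The share of all genes' events that pass this rule was not taken, so the count is not a result about the members. In CDC16, the 91-nt exon 17 read 97.7% in DMSO siNT and 66.9% in DMSO siSF3B1, and 97.4% against 49.5% in 4OHT, from 147 to 667 reads; its loss would leave 511 codons with no junction after the stop. The 55-nt exon 2 of CDC16 read 94.1% against 68.7% and 93.8% against 69.6%, and would leave 30 codons; with siRBM39 it read 99.3% and 98.4%. ANAPC1 lost exons mainly in 4OHT: its 54-nt exon 37, which is in frame, read 100% with siNT and 93.8% with siSF3B1 in DMSO but 77.5% in 4OHT. The neighbours exon 27 (174 nt, in frame) and intron 27 (1017 nt) of ANAPC4 both changed in 4OHT, the exon from 100% to 79.2% and the intron from 1.00% to 34.4%. In DMSO the intron rose from 3.42% to 29.4%, while the exon went from 100% to 93.9%. The last 3 introns of ANAPC2 were kept more after siSF3B1, and introns 10 and 11 also after siRBM39. Intron 10 read 21.3% with siNT, 57.1% with siSF3B1 and 55.5% with siRBM39 in DMSO, and 19.2%, 63.03% and 39.8% in 4OHT. The 235-nt intron 11 read 13.3%, 59.8% and 23.04% in DMSO, and 8.83%, 61.3% and 24.4% in 4OHT. Intron 12 read 17.9%, 29.7% and 16% in DMSO, and 15.3%, 33.9% and 10.8% in 4OHT.

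**Figure D4:**
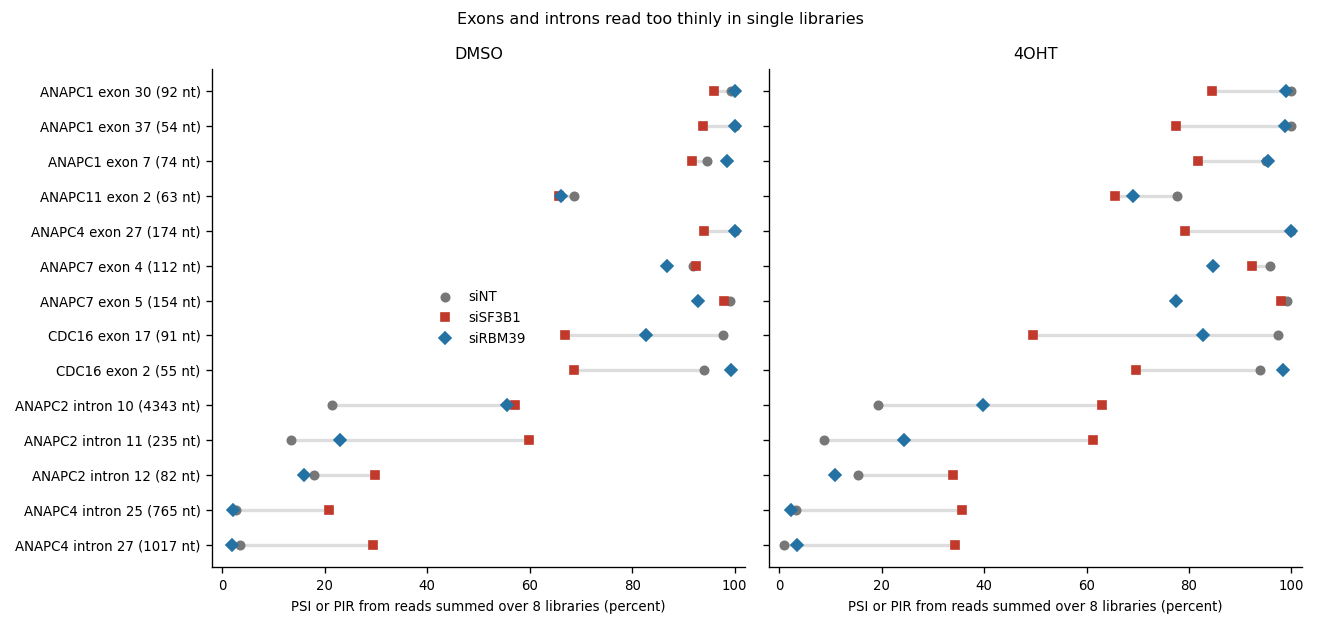
Exon inclusion and intron retention from reads summed over 8 libraries (x axis, percent) for the 14 events of the members (y axis), in DMSO and 4OHT, for siNT (grey circles), siSF3B1 (red squares) and siRBM39 (blue diamonds). CDC16 exon 17 lies at 49.5% with siSF3B1 in 4OHT, and ANAPC7 exon 5 is lowest with siRBM39, at 77.5%.

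After RBM39 knockdown, ANAPC7 and CDC16 were lower in both treatments. In DMSO, 2 of 10 were called, CDC16 and ANAPC7, both lower, against 46.1% of all genes (23.9% higher and 22.2% lower). In 4OHT, 7 of 10 were called, 6 of them lower, against 56.4% of all genes (32.2% higher and 24.3% lower). The median log2 fold change of the members was -0.08 and -0.21, against 0.02 and 0.05 over all genes.

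ANAPC7 showed the largest drop after siRBM39. With the knockdown it stood at 22.1 to 25.7 CPM in DMSO and at 21.4 to 29.1 CPM in 4OHT, below every siNT library of the same treatment. The log2 fold changes were -0.73 (SE 0.04, adjusted p = 3.74e-19) and -0.98 (SE 0.04, adjusted p = 4.53e-24). In the summed reads its 154-nt exon 5 read 99.0% with siNT and 92.8% with siRBM39 in DMSO, and 99.1% against 77.5% in 4OHT, where leaving out any 1 library gave 75.1 to 83.5%. The 112-nt exon 4 before it read 95.7% against 84.6% in 4OHT, from 158 reads with siRBM39. That drop was less firm: leaving out any 1 library gave 82.7 to 91.5%. The siRNAs also differed, at 91.6% with 1 siRNA against RBM39 and 74.25% with the other. With siSF3B1 exon 5 read 98.0% in DMSO and 97.9% in 4OHT.

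CDC16 stood at 61.3 to 80.7 CPM after the knockdown in DMSO and at 56.4 to 62.7 CPM in 4OHT, again below all siNT libraries. Its log2 fold changes were -0.31 (SE 0.06, adjusted p = 6.57e-05) and -0.54 (SE 0.06, adjusted p = 3.76e-10). Its exon 15 was included at 89.2 to 98.3% after the knockdown in DMSO and at 89.1 to 99.0% in 4OHT, which gave -4.69 points (adjusted p = 3.46e-04, under the minimum of 5) and -5.05 points (adjusted p = 8.42e-06). With either knockdown the summed reads also showed less of exon 17, at 82.6% and 82.8% after siRBM39.

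In 4OHT, CDC27 fell from 98.5 to 109.9 CPM with siNT to 40.6 to 93.9 CPM with siRBM39 (log2 fold change -0.36, SE 0.09, adjusted p = 6.59e-04), and the lowest library was siRBM39-08 replicate 4. Without the 3 libraries that stood apart, its log2 fold change was -0.26 (adjusted p = 2.67e-05). ANAPC4 (-0.42, SE 0.07, adjusted p = 2.07e-06), ANAPC1 (-0.32, SE 0.06, adjusted p = 1.40e-05) and ANAPC5 (-0.09, SE 0.03, adjusted p = 0.0172) were lower in 4OHT, and ANAPC10 was higher (0.21, SE 0.08, adjusted p = 0.0172). The 7 calls in 4OHT were made again without those libraries, and in DMSO ANAPC10 and CDC23 (both higher) and ANAPC11 (lower) were called in addition. Both libraries left out in DMSO were of siRBM39-06, and the siRNAs differed. In DMSO, CDC23 read 29.1 to 34.8 CPM with siRBM39-06 and 38.8 to 43.6 CPM with siRBM39-08, beside 34.9 to 37.6 CPM with siNT. Its log2 fold change was -0.16 with siRBM39-06 alone and 0.20 with siRBM39-08 alone. ANAPC5 was not called with siRBM39-08 alone or without replicate 2 or 3, and ANAPC10 not with siNT1 alone, siRBM39-08 alone or without replicate 1 or 2, which left as few as 5 calls. Of the 23 tested events, 1 was called in each treatment after siRBM39: exon 15 of CDC16 in 4OHT and intron 10 of ANAPC5 in DMSO (-5.47 points, adjusted p = 0.00230). The intron 10 call used the same high DMSO siNT libraries as that after siSF3B1. It was lost by the exact permutation test, with siRBM39-08 alone, without replicate 2 and at 10 points. Among the 6 introns that failed the balance test, 1 other intron of ANAPC5, 796 nt long, rose most after siRBM39, by 6.27 points in DMSO and 6.26 points in 4OHT (exact permutation test, p adjusted over the 30 tests = 0.0206 and 0.00932). By the same test a 930-nt intron of CDC16 rose by 2.00 and 2.17 points (adjusted p = 0.00466 and 0.00311). After siSF3B1 it rose too, by 1.76 points in DMSO and 2.58 points in 4OHT (adjusted p = 0.0177 and 0.0206). A 4104-nt intron of ANAPC5 rose by 1.92 points in 4OHT after siRBM39 (adjusted p = 0.00641). It changed by -1.85 points after siSF3B1 in DMSO (adjusted p = 0.00533) and by -1.50 points with 4OHT alone (adjusted p = 0.00350). The changes of both introns were under the 5 points asked of a call. The backgrounds were 8.26% and 9.34% of exons and 2.06% and 2.08% of introns in DMSO and 4OHT, and 6.32% and 5.12% of alternative splice sites, of which 0 of 2 were called.

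With RAS switched on and no knockdown, the log2 fold changes of the members lay between -0.54 and 0.46 (median 0.19, against 0.00 over all genes). Of 10, 5 rose with 4OHT in siNT cells (ANAPC2, CDC27, ANAPC5, ANAPC7 and ANAPC10) and CDC23 fell, against 78.1% of all genes called (39% higher and 39.1% lower). CDC27 went from 73.2 to 92.3 CPM in DMSO to 98.5 to 109.9 CPM in 4OHT without overlap (log2 fold change 0.40, SE 0.09, adjusted p = 8.03e-05). ANAPC2 rose by 0.46 (SE 0.12, adjusted p = 4.24e-04), ANAPC5 by 0.29 (SE 0.03, adjusted p = 1.48e-10), ANAPC7 by 0.28 (SE 0.04, adjusted p = 1.40e-07) and ANAPC10 by 0.28 (SE 0.08, adjusted p = 0.00136). CDC23 changed by -0.54 (SE 0.07, adjusted p = 1.21e-09), beside -4.05 for KIF20A on the opposite strand. ANAPC10 overlaps ABCE1, which rose by 0.93, and ANAPC11 overlaps PCYT2, which changed by -0.99; their part in these values was not tested. Without the libraries that stood apart, ANAPC1 (0.10, adjusted p = 0.0181) was called higher with 4OHT and ANAPC11 (-0.19, adjusted p = 0.00802) lower. CDC16 was at 81.4 to 88.8 against 83.8 to 89.8 CPM (0.02, SE 0.06, adjusted p = 0.746). None of the 23 tested events was called with 4OHT by limma, where 1.60% of exons, 0.0953% of introns and 0.327% of alternative splice sites were, with 3 of the 23 at an unadjusted p under 0.05 and 0 called when an exact permutation test was used instead.

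The knockdown effect was compared between treatments in the same model. For siSF3B1 the fall was deeper in 4OHT for 4 of 9 members, against 37.8% of all genes called (17.9% higher and 19.9% lower): CDC16 (-0.64, SE 0.09, adjusted p = 1.22e-07), ANAPC1 (-0.46, SE 0.09, adjusted p = 2.59e-05), ANAPC7 (-0.29, SE 0.06, adjusted p = 1.16e-04) and CDC23 (-0.26, SE 0.10, adjusted p = 0.0312). CDC23 was not called with siNT1 alone or without replicate 2, 3 or 4, which left 3 members. CDC27, with no test, differed by -0.54 (SE 0.13). For siRBM39 it was deeper for 2 of 10, ANAPC4 (-0.32, SE 0.10, adjusted p = 0.0224) and ANAPC7 (-0.25, SE 0.06, adjusted p = 0.00357), against 14.1% of all genes (7.28% higher and 6.87% lower). Neither was called with siNT1 alone or without replicate 3, nor ANAPC4 without replicate 2 or 4. Without the libraries that stood apart, ANAPC2 was added after siSF3B1 (-0.19, adjusted p = 0.0261), and ANAPC1 (-0.22, adjusted p = 0.00668) and CDC27 (-0.22, adjusted p = 0.0240) after siRBM39. The comparisons within a treatment share their siNT libraries. For splicing, a test of this difference was added after the values were seen; 0 of 21 events after siSF3B1 and 0 of 23 after siRBM39 were called by limma, with 5 and 1 at an unadjusted p under 0.05. Over all events, 0.613% and 0.0391% of exons, 0.0191% and 0% of introns and 0% and 0.109% of alternative splice sites were called, and exon 15 of CDC16 differed by -10.9 points (adjusted p = 0.230).

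Other genes of the pathway were read as a fixed list of 32, of which 23 were tested. After siSF3B1, 13 fell and 3 rose in DMSO, and 12 fell and 6 rose in 4OHT, where 36.2% and 37.6% of all genes fell and 36.5% and 39.4% rose. Substrates made up most of the falls, 11 of 12 tested in DMSO and 10 of 12 in 4OHT. In DMSO the coactivator CDC20 (-1.85, SE 0.21, adjusted p = 6.86e-11), cyclin A2 (CCNA2, -1.85, SE 0.12, adjusted p = 6.04e-19) and the mitotic kinase PLK1 (-1.42, SE 0.14, adjusted p = 3.33e-12) were lowest on the log2 scale. The checkpoint protein BUB3, an inhibitor of the complex, rose in both treatments (0.47, SE 0.05 in each, adjusted p = 1.22e-12 in DMSO and 5.89e-13 in 4OHT). Further subunits of the complex were not called lower: of ANAPC13, ANAPC15, ANAPC16 and CDC26, 3 were tested (not ANAPC15), of which 1 rose in DMSO and 2 in 4OHT. After siRBM39, 5 fell and 2 rose in DMSO, and 4 fell and 6 rose in 4OHT, against 22.2% and 24.3% of all genes lower and 23.9% and 32.2% higher. With 4OHT alone, 11 of 12 tested substrates fell, against 39.1% of all genes, led by thymidine kinase (TK1, -3.66, SE 0.22, adjusted p = 7.72e-20), and the kinase AURKA rose (0.49, SE 0.10, adjusted p = 2.17e-05). A list of 4 proliferation markers summed to 88.9 to 124 CPM in DMSO siNT, 31.7 to 49.2 in DMSO siSF3B1 and 28.4 to 33.8 in 4OHT siNT. After siSF3B1, 3 of the 4 were called lower and 1 higher in each treatment, and with 4OHT alone all 4 were lower. The part of cell division in the members' values was not tested.

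The genes whose level followed that of CDC27 most closely over the 48 libraries were PAK1IP1 (Pearson r of log2 CPM 0.96), CAPRIN1 (0.95), EIF2AK4 (0.95), WDR44 (0.95) and YTHDC2 (0.94). The libraries share groups and the 3 that stood apart, so these values are a description. Taken within groups, r was 0.86, 0.93, 0.91, 0.84 and 0.86 for these genes in the same order. Among the members, r was 0.77 over all libraries and 0.68 within groups for ANAPC1, 0.77 and 0.20 for CDC16, and 0.62 and -0.49 for ANAPC5. It was -0.73 and -0.84 for ANAPC11 and -0.32 and -0.79 for ANAPC2. All these values, also those within groups, include the 3 libraries that stood apart. In siRBM39-08 replicate 4 in 4OHT, CDC27 and ANAPC1 read low and ANAPC2, ANAPC5 and ANAPC11 read high. No r was taken without these libraries, so their part in it was not tested.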

How the data were processed

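IMR90 ER:RAS RNA was sequenced in 48 libraries (6 groups of 8). The authors made the deposited raw counts per gene, cRPKM (RPKM corrected for mappability) and percent inclusion values with vast-tools version 2 and its hg19 annotation, merging lanes; the submitters' processing notes name hg19, edgeR and limma. A deposited file of normalized CPM was not used. The members and lists were chosen with earlier results of these data known.

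Genes with at least 10000 counts in total were tested with edgeR 4.0.16 (TMM, quasi-likelihood, 6 group means, R 4.3.3), adjusted by Benjamini-Hochberg over all 9991. Events needed a coverage score of VLOW or better in all libraries and a PSI range of 5 points or more, and introns were left out where the deposited balance test of reads at both ends fell under 0.05. They were tested with limma 3.58.1 on the logit of 0.01 + 0.98 x PSI, within each class of event. Calls needed an adjusted p under 0.05 and, for events, 5 points. Named members were all 10, named pathway genes the up to 3 largest calls in each direction. Both procedures were tested on simulated data. DESeq2 1.42.0 was an alternative. Depth is given with the results, and PSI rests on the reads stated beside it. The titles were used where the treatment label of 4 siNT2 libraries differed. Replicate numbers, given per siRNA, were not used to pair the libraries.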

Additional observations from a re-analysis of the deposited data

Results flagged for a closer look

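In groups of 8, a library was set aside for a closer look where its gap to the next was over Dixon's critical value for the group's range. Chance flags about 1 in 20 groups, or 6.45 of the 129 checked; 24 were flagged, 6 of 60 for expression and 18 of 69 for PSI.

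All 6 expression values came from siRBM39-08 replicate 4 in 4OHT. It read low for ANAPC1 (37.95 CPM, the other 7 at 51.8 to 61.0), CDC23 (16.1, others 22.1 to 26.8) and CDC27 (40.6, others 78.9 to 93.9). It read high for ANAPC2 (100.3, others 37.5 to 52.0), ANAPC5 (128, others 103.3 to 115) and ANAPC11 (54.0, others 14.96 to 21.7).

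For splicing, exon 15 of CDC16 read 34.8% in siSF3B1-13 replicate 1 in 4OHT. ANAPC2 intron 9 read 8.16% in siRBM39-06 replicate 1 in DMSO and 63.0% in siSF3B1-13 replicate 2 in 4OHT. In siNT1 replicate 4 in DMSO, ANAPC2 intron 8 read 12.3% and CDC16 intron 14 read 7.76%. In siSF3B1-13 replicate 4 in DMSO, ANAPC5 exon 3 read 80.1% and its intron 10 read 5.56%. The other 11 lay in groups whose remaining 7 libraries all read 0 or all read 100%: ANAPC4 intron 20 at 1.69, 1.30 and 3.45%, ANAPC5 exon 3 at 95.6 and 94.6%, CDC27 exon 17 at 98.6% in DMSO siNT (98.57) and in 4OHT siNT (98.61), the 164-nt CDC27 exon at 1.19, 0.63 and 1.19%, and CDC27 exon 10 at 98.5%.

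The effect of a knockdown differed between 4OHT and DMSO on the log2 scale for CDC16 (-0.64), ANAPC1 (-0.46), ANAPC7 (-0.29) and CDC23 (-0.26) after siSF3B1, and for ANAPC4 (-0.32) and ANAPC7 (-0.25) after siRBM39, by the interaction term in edgeR.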

How the results depend on the processing

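Of the members' fold changes under all alternatives, 913 kept direction and call, 43 gained a call, 22 lost one and 2 reversed; of the event differences these were 757, 8, 30 and 0. The reversals were ANAPC11 after siRBM39 in DMSO, at -0.20 without the 3 libraries that stood apart (an alternative chosen after seeing the data), and CDC23 in the same comparison, at -0.16 with siRBM39-06 alone. The 2 members called after siRBM39 in DMSO became 6 with siRBM39-06 alone, 4 with siRBM39-08 alone and 5 without those 3 libraries. The 2 members whose siRBM39 effect differed between treatments became 0 with siNT1 alone, 4 with siRBM39-06, 5 with siRBM39-08, 4 without the 3 libraries and 0 to 3 on leaving out replicates. After siSF3B1, the 7 events called became 3 in DMSO and 4 in 4OHT at a minimum of 10 points, and 3 and 2 at a coverage score of LOW, where fewer events were tested. After siRBM39 in DMSO, the 1 event called became 0 at 10 points, 0 by the exact permutation test, 2 with no balance filter, 2 with siRBM39-06 alone, 0 with siRBM39-08 alone and 0 to 2 on leaving out replicates. After siRBM39 in 4OHT, the 1 event called became 0 at 10 points, 2 with no balance filter, 0 with siNT1 alone, 0 with siRBM39-08 alone and 0 to 1 on leaving out replicates. In the order of levels, 4 of 10 members kept their place by CPM. The cause was not tested. With the replicate number as a block, the members called were 6 and 6 after siSF3B1, 2 and 7 after siRBM39, 6 with 4OHT and 4 and 2 for the difference between treatments, and the events 7, 7, 1, 1 and 0, so no count changed. Deviations of same-numbered libraries had a median r of 0.012 over 264 pairs (-0.898 to 0.790), with 78 pairs over 0.1. Of 48 libraries, 14 were closest to their own number. Whether some same-numbered libraries shared a batch was not tested. Read depth per exon, often under 100 reads, limits the splicing values.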
